A study of Homo sapiens with 31 samples.

Results

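The mucins and trefoil factors are the proteins from which intestinal and gastric epithelia build their mucus coat, and 10 of their genes were followed here in Caco-2 cells, out of 22395 genes measured. The members were MUC1, MUC13, MUC17, MUC20, MUC2, MUC5AC, MUC5B, TFF1, TFF2 and TFF3, and each was represented by the probe set whose annotation names only that gene. Every member had exactly 1 such probe set, so 10 of 10 were measured and none was filtered out.

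Mucins are large, heavily O-glycosylated glycoproteins. The secreted, gel-forming mucins are stored in goblet cell granules and released to build the mucus layer, whereas the membrane mucins span the apical membrane of enterocytes and form the glycocalyx on the microvilli. Trefoil factors are small, disulfide-rich peptides secreted together with mucins and known for promoting restitution of a damaged epithelium. In the healthy gut TFF1 and MUC5AC belong mainly to gastric surface cells, TFF2 to gastric gland neck cells, and TFF3 and MUC2 to intestinal goblet cells.

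Caco-2 is a line derived from a human colorectal adenocarcinoma (HTB-37) that forms a polarised, enterocyte-like monolayer after long confluence. It was grown for 21 days, from 75000 cells seeded per cm2, either in a perfused gut-on-chip at 100 µL/h or on Transwell inserts without flow, and then exposed for 6 h. The 8 groups were chip TiO2 (100 µg/mL) and its chip TiO2-control, chip ZnO (80 µg/mL) and its chip ZnO-control, Transwell TiO2 (50 µg/mL) and its Transwell TiO2-control, and Transwell ZnO (10 µg/mL) and its Transwell ZnO-control. Each control received dispersion medium without metal, and the doses differed between the systems because they had been modelled to deposit equal amounts on the cells. Every group had 4 arrays except Transwell TiO2, which had 3, giving 16 chip and 15 Transwell arrays. All groups share the same single cancer line, and flow, device and support differ together between the systems, so they cannot be told apart. Nothing in the labels says that replicates came from separate cultures, so p-values measure the spread between these samples, which may be technical.

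All 8 of the epithelial identity markers set for Caco-2 cells, among them villin (VIL1), EPCAM and the intestinal transcription factor CDX2, lay above the array medians in every group. Their levels were not equal between the systems. Over both control media 3 of the 8 were higher in the chip and 3 lower, against 33.5% of all genes (14.6% higher, 18.9% lower). Array medians, taken over all probe sets, were 3.24 to 3.33 on the log2 scale and correlations between arrays were 0.942 to 0.987. Medians over the genes tested were higher, at 4.24 to 4.40. Replicate 4 of chip TiO2 stood apart. On the second principal component over all genes it scored -15.4, against 9.33 to 11.8 for the other chip TiO2 arrays, and on the third it scored -14.0 against 16.7 to 20.1. Replicate 4 of chip TiO2-control scored 7.81 on the third component, against -19.4 to -14.9 for the other arrays of its group. On that component replicate 4 of chip TiO2 thus lay beside the other control arrays. Replicate 4 of chip TiO2-control lay on the side of the other exposed arrays. The cause was not tested. Chip TiO2 replicate 4 was also the lowest array of its group for 10 of 10 members, while 34.3% of all genes were lowest there, and the median deviation of the members from their group means was -0.52. Without replicate 4 of both groups, the same members passed in the same direction over both control media, in TiO2-control medium and after TiO2, and values that moved are given beside the results. Chip ZnO replicate 1 also stood apart, at -24.5 on the third component against 4.27 to 25.6 for the other chip ZnO arrays, and at -53.5 on the first against -41.8 to -36.4. It was the lowest array of its group for 6 of 10 members and for 35.2% of all genes. Without it 5 members passed between chip and Transwell after ZnO and 0 passed for ZnO against its control in the chip, as with all arrays.

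The stretches around the transcription start are printed for all 4 members for which RefSeq (GRCh38.p14) promoter sequence was at hand. Over both control media MUC1 and MUC13 differed between chip and Transwell, and MUC17 and MUC2 did not pass. Whether motifs go with those calls was not tested. Each runs 5′ to 3′ on the gene's own strand over 300 bases, from 250 before the start to 50 after it. The windows are chr1:155192866-155193165 on the minus strand for MUC1, chr3:124934702-124935001 on the minus strand for MUC13, chr7:101019831-101020130 on the plus strand for MUC17 and chr11:1074624-1074923 on the plus strand for MUC2. Capitals mark motif matches.
MUC1: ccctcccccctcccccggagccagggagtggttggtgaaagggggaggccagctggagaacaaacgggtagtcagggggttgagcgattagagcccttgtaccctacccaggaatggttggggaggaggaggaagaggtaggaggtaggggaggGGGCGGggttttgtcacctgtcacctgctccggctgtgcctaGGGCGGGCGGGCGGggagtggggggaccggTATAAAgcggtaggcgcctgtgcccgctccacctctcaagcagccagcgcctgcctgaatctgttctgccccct
MUC13: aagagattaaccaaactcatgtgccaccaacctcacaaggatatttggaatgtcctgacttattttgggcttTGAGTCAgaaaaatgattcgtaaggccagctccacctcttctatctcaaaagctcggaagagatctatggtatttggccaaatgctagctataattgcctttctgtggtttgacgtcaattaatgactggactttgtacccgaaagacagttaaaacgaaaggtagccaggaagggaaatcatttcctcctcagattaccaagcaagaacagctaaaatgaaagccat
MUC17: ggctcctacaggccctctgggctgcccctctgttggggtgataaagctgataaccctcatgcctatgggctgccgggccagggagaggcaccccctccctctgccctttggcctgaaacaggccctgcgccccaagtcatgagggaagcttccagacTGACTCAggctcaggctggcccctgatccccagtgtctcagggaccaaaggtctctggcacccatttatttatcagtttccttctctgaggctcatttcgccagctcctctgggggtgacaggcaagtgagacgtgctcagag
MUC2: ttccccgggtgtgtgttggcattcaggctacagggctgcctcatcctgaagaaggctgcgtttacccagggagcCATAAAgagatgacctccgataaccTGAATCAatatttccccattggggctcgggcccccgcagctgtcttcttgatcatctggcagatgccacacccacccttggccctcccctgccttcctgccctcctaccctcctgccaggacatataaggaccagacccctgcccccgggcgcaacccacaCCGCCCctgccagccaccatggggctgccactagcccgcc

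Both strands were searched for 6 short motifs, and positions give the first base of a match, counted with the start base as 1 and the base before it as -1. A TATA box (TATAAA), the element that positions the transcription machinery, was found in MUC1 at -24 and is present in 11.5% of all 35116 promoters of this length. GC boxes (GGGCGG), the binding element of SP1, were found 4 times in MUC1, at -96, -54, -50 and -46, where the last 3 overlap each other, and once in MUC2 at 11. That element is present in 45% of promoters. A loose form of the AP-1 element (TGANTCA, any middle base) was found in MUC13 at -178, in MUC17 at -93 and in MUC2 at -151. That loose form is present in 7.71% of promoters. The middle base is G in MUC13 and C in MUC17, as in the usual AP-1 element. In MUC2 it is A, which departs from that element. A CDX element (TTTATG) was found in MUC2 at -176, and 10.6% of promoters have it. The core of the xenobiotic response element (GCGTG, 36.5% of promoters) and a forkhead element (TGTTTNC, 18% of promoters) matched in 0 of the 4 windows. Matches of different motifs did not overlap, and a match describes letters in the window and not a bound site. MUC1 has 2 listed starts 6 bases apart, of which the upstream window is printed.

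Between the culture systems, the trefoil factors moved in opposite directions. In control media TFF1 was 3.23-fold higher in the chip than on Transwell, and TFF2 was 2.44-fold lower in the chip. The membrane mucins MUC1, MUC13 and MUC20 were higher in the chip by 1.56-fold, 1.25-fold and 1.41-fold. These fold changes come from the mean over both control media. Taken by medium, MUC1 and MUC20 passed in ZnO-control medium and not in TiO2-control medium. MUC13 passed in TiO2-control medium and not in ZnO-control medium. The gel-forming mucins MUC2, MUC5AC and MUC5B, the membrane mucin MUC17 and TFF3 did not pass over both control media. Over both control media, with 8 chip and 8 Transwell arrays, 4 members were higher and 1 was lower of 10 at an adjusted p under 0.05, against a background of 33.5% of all genes passing in either direction (14.6% higher, 18.9% lower). The median difference of the members was 0.11 on the log2 scale, and that of all genes was -0.0037. A count of 5 of 10 is to be read against that share. These are bulk samples, so fewer cells of a type and less RNA per cell cannot be told apart.

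**Figure D1:**
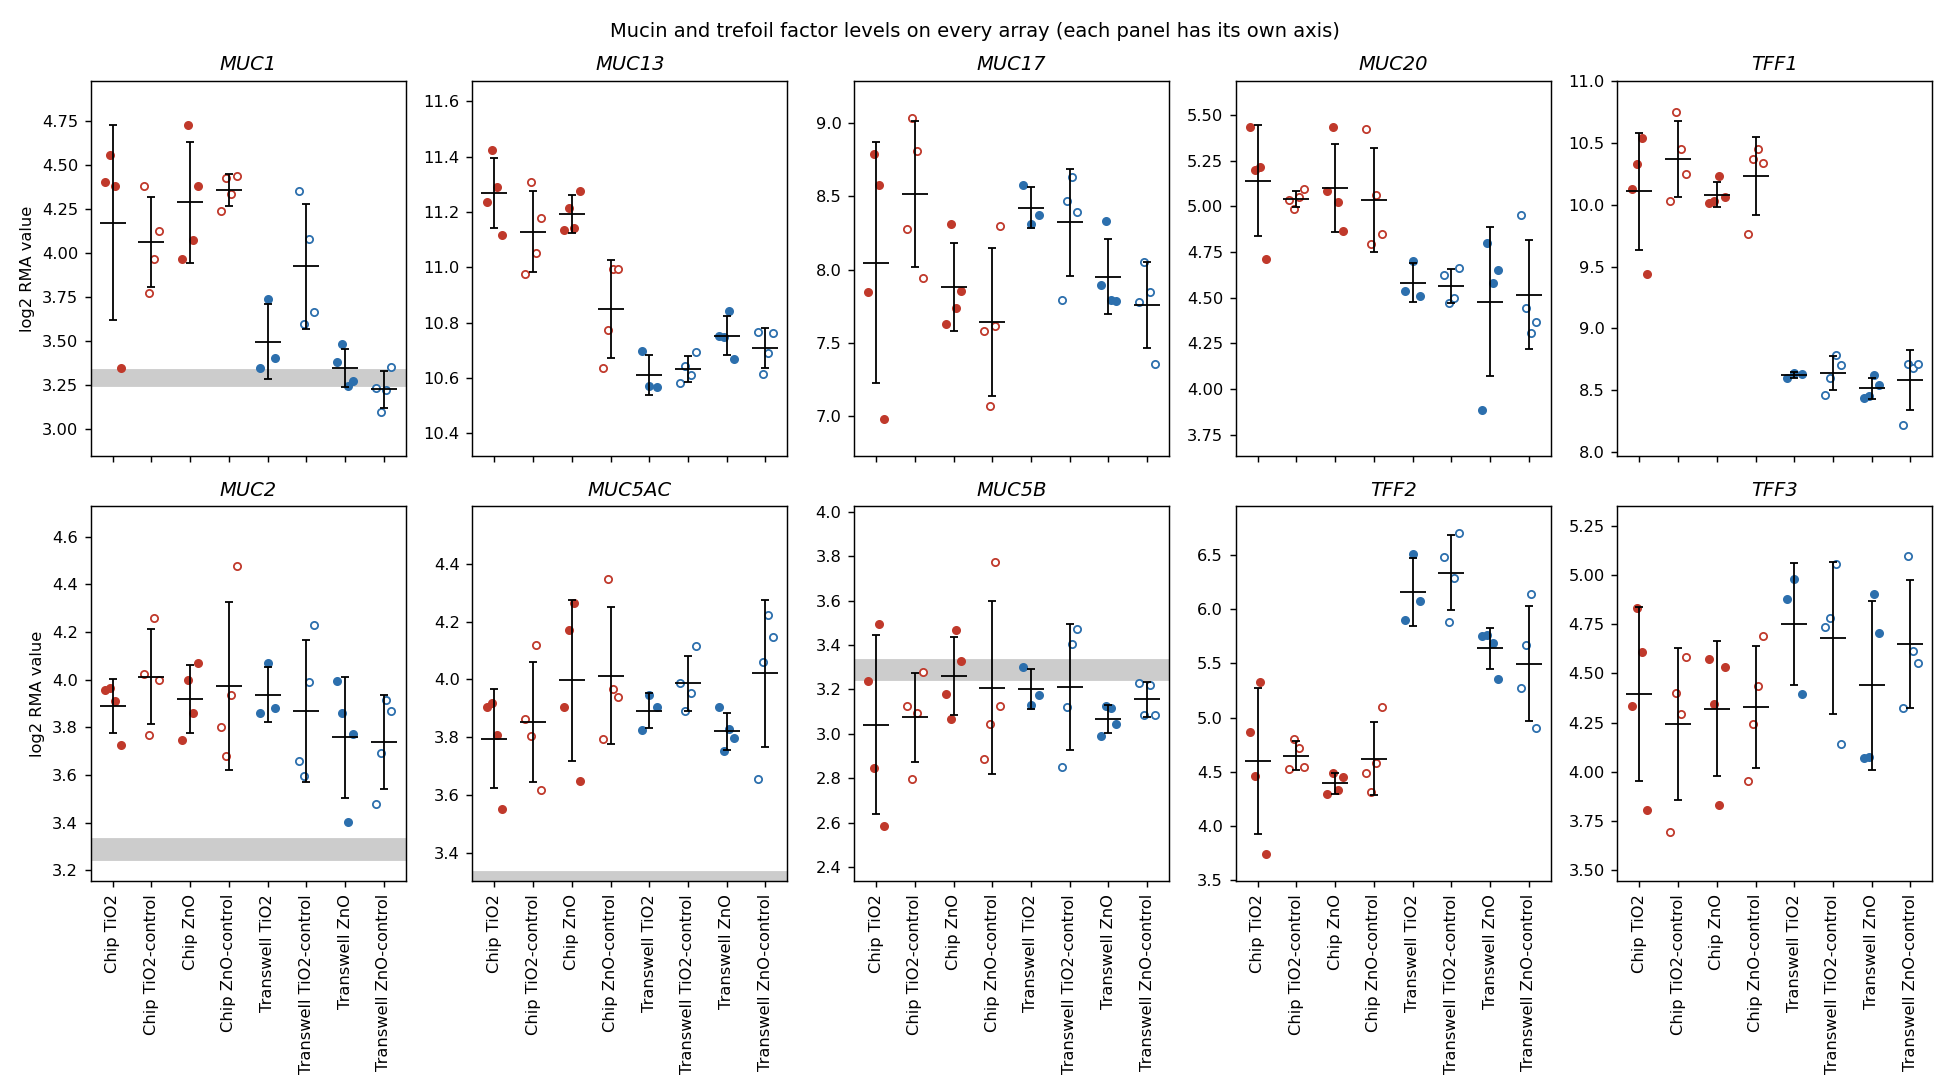
Log2 RMA value of each member on each of the 31 arrays, by group, with chip groups in red and Transwell groups in blue, exposed groups filled and control groups open. The horizontal bars are group means, the whiskers 1 SD, the grey band the range of the array medians (shown where it falls within a panel), and each panel has its own axis. TFF1 lay at 9.44 or above on every chip array and at 8.78 or below on every Transwell array.

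TFF1, a gastric trefoil peptide and a classical oestrogen-responsive gene, separated the systems completely. Its log2 values were 10.13, 10.33, 10.54 and 9.44 in chip TiO2 and 10.03, 10.75, 10.45 and 10.25 in chip TiO2-control. They were 10.01, 10.03, 10.23 and 10.06 in chip ZnO and 9.76, 10.37, 10.45 and 10.34 in chip ZnO-control. On Transwell they were 8.60, 8.64 and 8.63 after TiO2, 8.46, 8.60, 8.78 and 8.70 in TiO2-control, 8.44, 8.46, 8.62 and 8.54 after ZnO, and 8.22, 8.71, 8.68 and 8.71 in ZnO-control. All 16 chip arrays lay above all 15 Transwell arrays, and the lowest chip value, from chip TiO2 replicate 4, was still above the highest Transwell value. The difference over both control media was 1.69 ± 0.13 (log2 difference ± SE, adjusted p = 1.283e-11). TFF1 was the only member whose chip and Transwell control arrays did not overlap, and 11.9% of all genes had such a separation. By medium the difference was 1.74 ± 0.18 in TiO2-control, 1.65 ± 0.18 in ZnO-control, 1.49 ± 0.19 after TiO2 and 1.57 ± 0.18 after ZnO. Without replicate 4 of the chip TiO2 and TiO2-control groups it was 1.71 after TiO2, 1.78 in TiO2-control and 1.71 over both control media.

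TFF2, also called spasmolytic polypeptide, ran the other way. Its log2 values were 4.86, 4.46, 5.33 and 3.74 in chip TiO2, 4.53, 4.80, 4.72 and 4.55 in chip TiO2-control, 4.29, 4.49, 4.33 and 4.46 in chip ZnO, and 4.49, 4.31, 4.58 and 5.10 in chip ZnO-control. On Transwell they were 5.90, 6.51 and 6.08 after TiO2, 6.49, 5.88, 6.29 and 6.70 in TiO2-control, 5.76, 5.76, 5.69 and 5.36 after ZnO, and 5.27, 5.67, 6.15 and 4.91 in ZnO-control. Chip values were the lower ones without overlap in 3 of the 4 media, but in ZnO-control medium the groups overlapped, where the lowest Transwell ZnO-control array lay below the highest chip ZnO-control array. The difference over both control media was -1.28 ± 0.18 (adjusted p = 1.07e-06). It was -1.69 ± 0.25 in TiO2-control and -0.88 ± 0.25 in ZnO-control (adjusted p = 0.008534), and -1.56 ± 0.27 after TiO2 and -1.25 ± 0.25 after ZnO. When replicate 4 of both chip TiO2-set groups was left out, it was -1.28 after TiO2, -1.66 in TiO2-control and -1.27 over both control media. Without Transwell ZnO-control replicate 3 the ZnO-control difference was -0.66 and did not pass (adjusted p = 0.05796). Tested between the media, the contrast was 0.81 ± 0.36 (adjusted p = 0.2477).

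TFF3, the goblet cell trefoil peptide, did not pass. Its group means ran from 4.24 ± 0.39 in chip TiO2-control to 4.75 ± 0.31 on Transwell after TiO2 (SD, n = 4 and n = 3), and single arrays from 3.69 to 5.10. Over both control media the difference was -0.38 ± 0.18 with a 95% interval of -0.74 to -0.02 before adjustment and an adjusted p of 0.1047, and it passed only when Transwell TiO2-control replicate 4 was left out (-0.47, adjusted p = 0.04148). The chip and Transwell arrays overlapped. In the RefSeq gene order of GRCh38.p14, TFF3, TFF2 and TFF1 lie next to each other on chromosome 21 with no other protein-coding gene between them. Neighbours in 1 cluster thus had a higher, a lower and an unpassed value.

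MUC1, a membrane mucin whose cytoplasmic tail also signals, passed between the systems over both control media, in ZnO-control medium and after both exposures, but not in TiO2-control medium. Its log2 values were 4.40, 4.56, 4.38 and 3.35 in chip TiO2, 4.38, 3.77, 3.97 and 4.13 in chip TiO2-control, 3.96, 4.73, 4.07 and 4.38 in chip ZnO, and 4.24, 4.42, 4.34 and 4.44 in chip ZnO-control. On Transwell they were 3.34, 3.74 and 3.40 after TiO2, 4.35, 3.60, 4.08 and 3.66 in TiO2-control, 3.38, 3.48, 3.24 and 3.27 after ZnO, and 3.23, 3.09, 3.22 and 3.35 in ZnO-control. The chip and Transwell groups did not overlap in ZnO-control medium or after ZnO, and they overlapped in TiO2-control medium and after TiO2.

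The MUC1 difference was 0.64 ± 0.14 over both control media (adjusted p = 6.812e-04), made up of 1.14 ± 0.20 in ZnO-control (adjusted p = 6.587e-05) and 0.14 ± 0.20 in TiO2-control (adjusted p = 0.7126). The test of that contrast between the media gave 1.00 ± 0.29 with an adjusted p of 0.05482, just outside the threshold, where 0 of 10 members and 2.74% of all genes passed (3 members and 15.9% of genes at an unadjusted limma p under 0.05). It passed without replicate 4 of both chip TiO2-set groups (1.02, adjusted p = 0.01474), and also without chip TiO2-control replicate 1 (1.10, adjusted p = 0.0447) or Transwell TiO2-control replicate 2 (1.11, adjusted p = 0.04811). After ZnO the difference was 0.94 ± 0.20 (adjusted p = 5.242e-04). After TiO2 it was 0.68 ± 0.22 (adjusted p = 0.02847), and 0.95 without replicate 4 (adjusted p = 5.213e-04), while it did not pass without chip TiO2 replicate 1, 2 or 3 or Transwell TiO2 replicate 1 or 3 (0.55 to 0.63). MUC1 was dim. On 26 of 31 arrays it lay above the array's own median, and its mean in Transwell ZnO-control, 3.22 ± 0.11, fell under the medians of all arrays in the group, so the size of differences against Transwell ZnO-control is uncertain.

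MUC13, an abundant membrane mucin of the intestinal brush border, had small differences with little spread. Its log2 values were 11.24, 11.42, 11.29 and 11.12 in chip TiO2, 10.98, 11.31, 11.05 and 11.18 in chip TiO2-control, 11.14, 11.22, 11.14 and 11.28 in chip ZnO, and 10.63, 10.78, 10.99 and 10.99 in chip ZnO-control. On Transwell they were 10.70, 10.57 and 10.57 after TiO2, 10.58, 10.64, 10.61 and 10.69 in TiO2-control, 10.75, 10.75, 10.84 and 10.67 after ZnO, and 10.77, 10.62, 10.69 and 10.76 in ZnO-control. Chip and Transwell arrays did not overlap in 3 of the 4 media, and in ZnO-control medium they overlapped. The differences were 0.66 ± 0.10 after TiO2, 0.50 ± 0.09 in TiO2-control and 0.44 ± 0.09 after ZnO, and all of them passed, whereas 0.14 ± 0.09 in ZnO-control did not (adjusted p = 0.3189). The difference over both control media was 0.32 ± 0.07 (adjusted p = 3.061e-04), and the test between the media gave -0.36 ± 0.13 (adjusted p = 0.1582). MUC13 differed, without replicate 4 of both chip TiO2-set groups, by 0.71 after TiO2, 0.48 in TiO2-control and 0.31 over both control media.

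MUC20, a membrane mucin known to bind the MET receptor, had log2 values of 5.44, 5.20, 5.21 and 4.71 in chip TiO2, 5.04, 4.98, 5.05 and 5.09 in chip TiO2-control, 5.09, 5.44, 5.02 and 4.87 in chip ZnO, and 5.43, 4.80, 5.06 and 4.85 in chip ZnO-control. On Transwell it had 4.54, 4.70 and 4.51 after TiO2, 4.63, 4.47, 4.50 and 4.66 in TiO2-control, 3.88, 4.80, 4.58 and 4.65 after ZnO, and 4.95, 4.44, 4.31 and 4.37 in ZnO-control. The chip arrays were the higher ones, and only in ZnO-control medium did the groups overlap, through Transwell replicate 1. The difference was 0.50 ± 0.13 over both control media (adjusted p = 0.002143). In single media it lay between 0.48 and 0.62, with adjusted p of 0.05097 in TiO2-control, 0.02842 in ZnO-control, 0.04019 after TiO2 and 0.007035 after ZnO. These calls lay close to the threshold: in ZnO-control medium 9 of 16 alternatives kept the call, and it was lost without chip ZnO-control replicate 1 or 3 or Transwell ZnO-control replicate 2, 3 or 4 (0.39 to 0.51 in those fits). After TiO2 8 of 16 kept it, and it was lost without replicate 1, 2 or 3 of chip TiO2 or of Transwell TiO2 (0.46 to 0.62). With replicate 4 of both chip TiO2-set groups left out, MUC20 differed by 0.70 after TiO2 (adjusted p = 0.0121), 0.46 in TiO2-control (adjusted p = 0.07112) and 0.49 over both control media. MUC20 has near-identical duplicated copies beside it, so its probe set may also measure those.

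MUC17, a membrane mucin of the enterocyte glycocalyx, was the most variable member in the chip. Its log2 values were 7.85, 8.79, 8.58 and 6.98 in chip TiO2, 8.28, 9.04, 8.81 and 7.94 in chip TiO2-control, 7.63, 8.31, 7.74 and 7.85 in chip ZnO, and 7.58, 7.07, 7.62 and 8.30 in chip ZnO-control. On Transwell they were 8.58, 8.32 and 8.37 after TiO2, 7.79, 8.47, 8.63 and 8.39 in TiO2-control, 7.90, 8.33, 7.79 and 7.79 after ZnO, and 7.78, 8.06, 7.85 and 7.36 in ZnO-control. Chip and Transwell overlapped in every medium. The difference over both control media was 0.04 ± 0.21, with a 95% interval of -0.39 to 0.47, so smaller differences in either direction were not detectable with these arrays.

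The gel-forming mucins were dim in both systems. MUC2, the main mucin of the intestinal mucus layer, had group means between 3.74 and 4.01. MUC5AC, the main mucin of the gastric surface, had group means between 3.79 and 4.02. MUC5B, a gel-forming mucin of airway and salivary mucus, had group means between 3.04 and 3.26 and exceeded the array median on 7 of 31 arrays, so no level could be assigned to it above the bulk of the array. The differences over both control media were 0.19 ± 0.11 for MUC2 (adjusted p = 0.2217), -0.07 ± 0.10 for MUC5AC (adjusted p = 0.6512) and -0.04 ± 0.12 for MUC5B (adjusted p = 0.8437). Their 95% intervals were -0.04 to 0.42, -0.27 to 0.13 and -0.29 to 0.21. Among protein-coding genes, these 3 follow each other on chromosome 11 in the order MUC2, MUC5AC, MUC5B in GRCh38.p14.

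By medium, 2 members were higher and 1 was lower of 10 in TiO2-control medium, against 22.9% of all genes passing (9.42% higher, 13.5% lower). In ZnO-control medium 3 were higher and 1 lower, against 27.2% (12.3% higher, 14.9% lower). After TiO2 4 were higher and 1 lower, against 18.2% (7.92% higher, 10.2% lower), and after ZnO 4 were higher and 1 lower, against 29.8% (13.3% higher, 16.5% lower). The chip and Transwell groups did not overlap for 4 members in TiO2-control medium (23.3% of all genes), 2 in ZnO-control medium (28.3%), 4 after TiO2 (27.6%) and 5 after ZnO (29.4%). TFF1 and TFF2 passed in each of the 4 media. Without replicate 4 of chip TiO2 and chip TiO2-control the counts in TiO2-control medium and after TiO2 stayed 2 and 1, and 4 and 1.

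**Figure D2:**
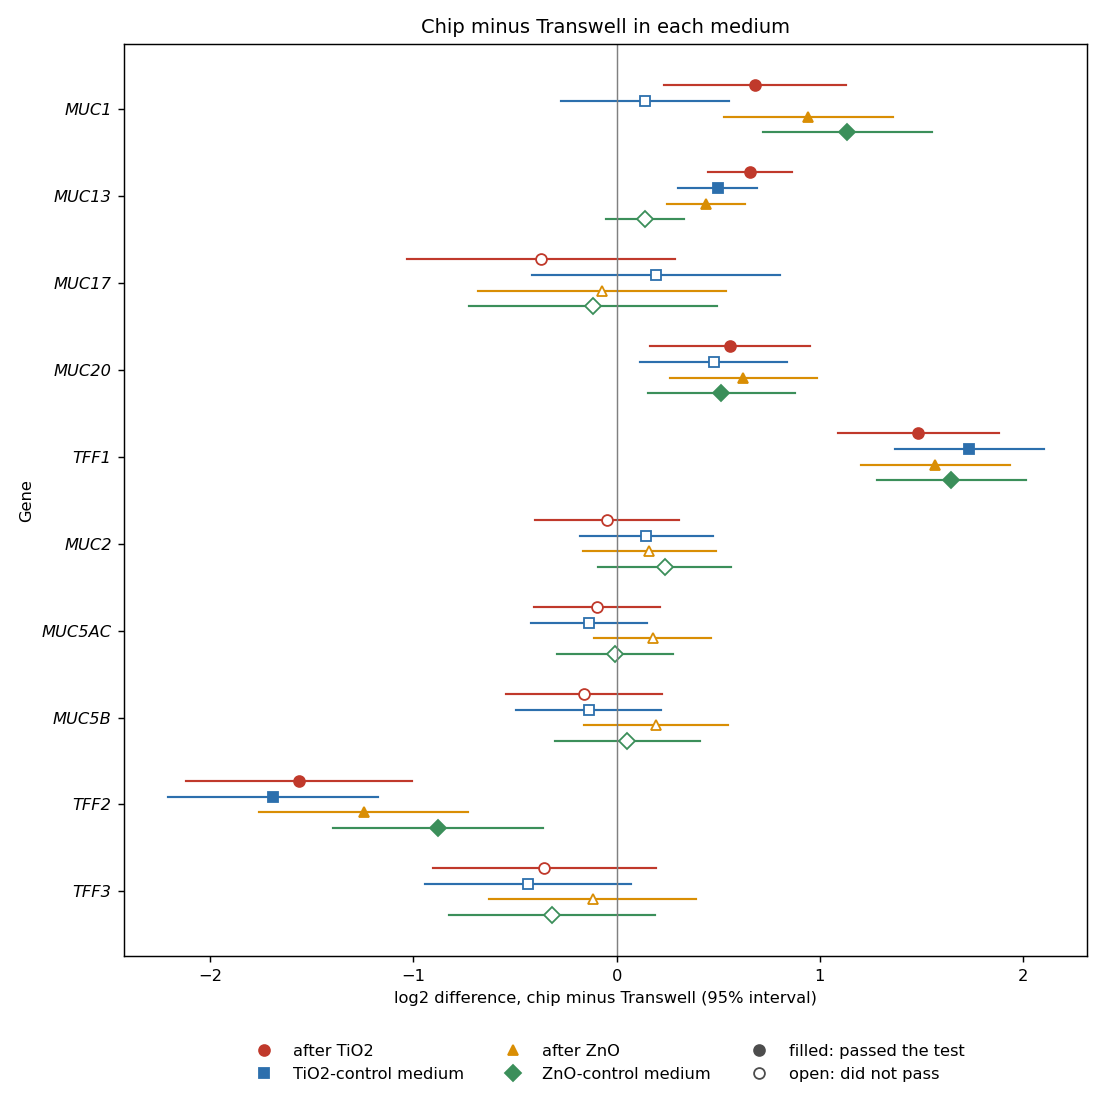
Log2 difference, chip minus Transwell, of each member in each of the 4 media, with 95% intervals before adjustment. Filled symbols passed at an adjusted p under 0.05 and open symbols did not. TFF1 lay between 1.49 and 1.74 and TFF2 between -1.69 and -0.88, while the MUC1 values spread from 0.14 to 1.14.

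Markers of the absorptive state moved with this comparison. Of 10 enterocyte markers 9 were lower in the chip over both control media and 0 were higher, with a median of -1.26. Over all genes 33.5% passed in this comparison (14.6% higher, 18.9% lower). Intestinal fatty acid binding protein FABP2 was lower by -4.25 ± 0.17 on the log2 scale (adjusted p = 6.275e-17) and the disaccharidase SI by -3.36 ± 0.33 (adjusted p = 2.051e-09). FABP2 averaged 2.20 in chip TiO2-control and 2.05 in chip ZnO-control, below the array medians, so the size of its difference is uncertain. The mean level of the 10 markers ran from 5.90 to 7.57 on the chip control arrays and from 8.14 to 8.51 on the Transwell control arrays. Their part in the differences of the mucins and trefoil factors was not tested.

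Of 10 goblet cell markers, 1 was higher (AGR2) and 1 lower (ZG16). Counts in this paragraph stand beside 33.5% of all genes passing over both control media (14.6% higher, 18.9% lower). The mean level of the goblet list was 4.06 to 4.43 on chip control arrays and 4.28 to 4.50 on Transwell control arrays. MUC2 and TFF3, which are members, are on that list, and AGR2 and ZG16 return in the mucus granule list below. The goblet chloride channel regulator CLCA1 and the goblet peptide RETNLB had group means of 1.79 to 1.84 and of 1.83 to 2.14, below the array medians. Of 8 gastric surface markers 2 were higher and 0 lower: TFF1 itself and the aspartic protease CTSE, which was higher by 1.57 ± 0.22 (adjusted p = 1.496e-06). The gastric list also holds the member MUC5AC. The gastrokines GKN1 and GKN2, which define that cell type, had group means of 1.74 to 1.98 and of 1.55 to 1.87. Of 6 Paneth cell markers 2 were higher and 1 lower, of 5 enteroendocrine markers measured 0 passed, and of 8 stromal and immune markers measured 1 was higher (CD68) and 1 lower (LUM). CD68, LUM and COL1A1 had group means of 10.4 to 11.4, 6.06 to 7.69 and 5.39 to 6.13, above the array medians, while the leukocyte marker PTPRC had 1.48 to 1.68 and the fibroblast marker DCN 1.57 to 1.74. The mean level of these 8 markers was 4.17 to 4.61 on chip control arrays and 4.30 to 4.47 on Transwell control arrays. The part of these in the members' differences was not tested.

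The machinery around the members was read from lists of genes. Of 11 other mucin genes 1 was higher in the chip and 0 lower over both control media (median 0.06): OVGP1, an oviduct mucin-like glycoprotein, at 0.48 ± 0.15 (adjusted p = 0.01152), which taken by medium passed in ZnO-control (0.56) and not in TiO2-control (0.40, adjusted p = 0.1905). Of 16 mucus granule and mucin folding genes 4 were higher and 2 lower (median 0.01). AGR3 was higher by 1.83 ± 0.16 (adjusted p = 2.852e-10). AGR2, the disulfide isomerase needed for MUC2 folding in mouse, was higher by 0.54 ± 0.09, and the folding enzyme PDIA3 by 1.11 ± 0.19. PDIA3 passed in TiO2-control medium (1.78 ± 0.28, adjusted p = 1.722e-05) and not in ZnO-control medium (0.44 ± 0.28, adjusted p = 0.2782). The lectin ZG16, which binds bacteria in the mucus, was lower by -2.05 ± 0.25 (adjusted p = 1.114e-07), with group means of 8.78 and 7.26 in chip TiO2-control and ZnO-control, against 10.19 and 9.94 on Transwell.

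Of 12 transcription factors of the goblet lineage 5 were higher and 3 lower (median 0.17). FOXA1 was lower by -1.44 ± 0.11 (adjusted p = 9.752e-12) and CDX2 by -0.74 ± 0.10. The epithelial factor ELF3 was higher by 1.30 ± 0.12 (adjusted p = 6.022e-10) and the secretory pathway factor CREB3L1 by 0.98 ± 0.10. ATOH1 and SPDEF, which specify and mature goblet cells, did not pass, with group means of 3.17 to 3.86 and of 3.95 to 4.53. KLF4, also on this list of goblet lineage factors, was higher by 0.69 ± 0.10 (adjusted p = 3.972e-06).

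Mucins carry sugar chains built in the Golgi, and of 34 O-glycosylation enzymes measured out of 35, 13 were higher in the chip and 7 lower (median 0.11). B3GNT3, which extends core 1 chains, was higher by 1.56 ± 0.10 (adjusted p = 6.642e-13). ST6GALNAC1, which caps the first sugar with sialic acid to make sialyl-Tn, was higher by 1.70 ± 0.13, and the sialyltransferase ST6GALNAC6 by 1.03 ± 0.08. ST6GALNAC1 averaged 3.15 in Transwell ZnO-control, below the medians of that group's arrays, so the size of its difference is uncertain. FUT2, the secretor fucosyltransferase, was lower by -1.41 ± 0.09 (adjusted p = 7.554e-13). Of 12 sheddases, lectins and receptors measured out of 13, 4 were higher and 4 lower (median 0.04). EGFR was higher by 0.88 ± 0.07, and MEP1B and MEP1A, the meprin subunits of which meprin beta cleaves MUC2 in mouse, were lower by -1.57 ± 0.13 and -1.06 ± 0.14. MEP1B averaged 3.15 in chip TiO2-control and 3.17 in chip ZnO-control, below the array medians, so the size of its difference is uncertain. The galectin LGALS4 was lower by -0.76 ± 0.11. All these lists were read against the same background of 33.5% of genes.

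**Figure D3:**
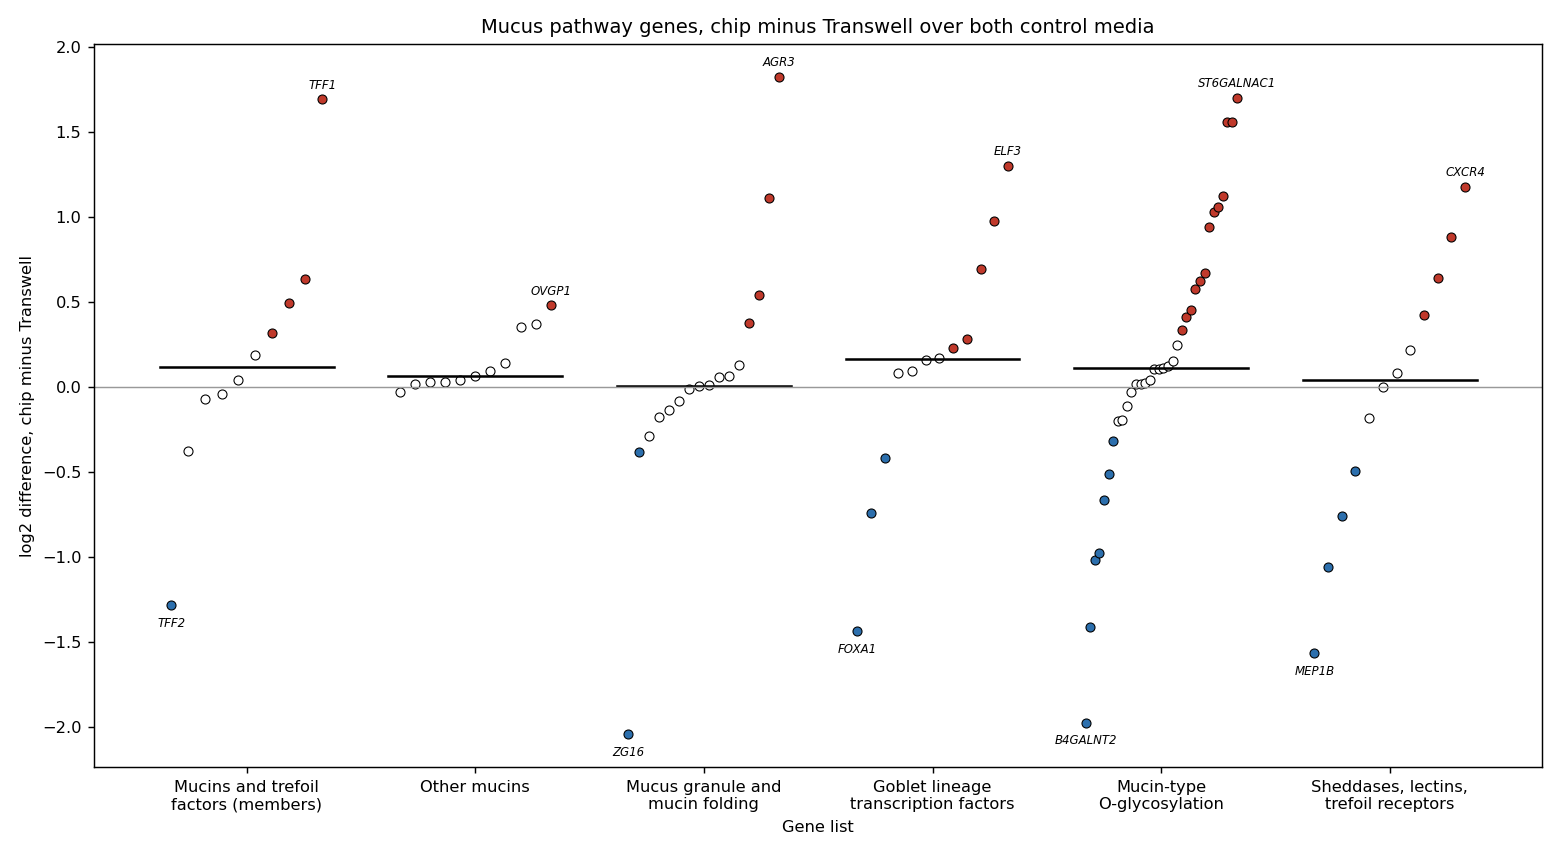
Log2 difference, chip minus Transwell over both control media, of every measured gene in the members' list and in 5 lists of related genes. Red points passed as higher, blue points passed as lower, white points did not pass, the black bar is the list's median, and the lowest and highest gene of a list is named where it passed. The medians lie between 0.01 and 0.17 in every list, while single genes reach -2.05 (ZG16) and 1.83 (AGR3).

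Exposure to the nanomaterials gave no passing member. For TiO2 against its control, 0 of 10 members passed in the chip (0% of all genes passed) and 0 of 10 on Transwell (0%). For ZnO against its control, 0 of 10 passed in the chip (0.272%) and 0 of 10 on Transwell (0%). At an unadjusted limma p under 0.05 the counts of members were 0 for TiO2 in the chip (8.92% of all genes), 0 for TiO2 on Transwell (2.64%), 1 for ZnO in the chip (9.42%) and 0 for ZnO on Transwell (3.73%).

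That member was MUC13. Its values in chip ZnO, 11.14 to 11.28, did not overlap those in chip ZnO-control, 10.63 to 10.99, and 3.59% of all genes had such a separation there. The difference was 0.34 ± 0.09 with an unadjusted limma p of 0.001058 and an adjusted p of 0.1339, and without chip ZnO replicate 1 it was 0.36 (adjusted p = 0.1317). It passed only with an intensity trend and robust prior in limma (adjusted p = 0.03463), where 96 genes in place of 61 were called. On Transwell the MUC13 difference after ZnO was 0.04 ± 0.09, and the difference between the systems' responses was 0.30 ± 0.13 (adjusted p = 0.83). These SEs share 1 variance over both systems, while the pooled within-group SD was 0.14 in the chip and 0.07 on Transwell. Of 10 members 0 passed for the difference of the ZnO responses (0.00447% of all genes) and 0 for that of the TiO2 responses (0%). At an unadjusted limma p under 0.05 these counts were 1 (6.01% of genes) and 0 (5.43%).

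The other members' exposure differences lay between -0.47 and 0.24 over both metals and both systems. MUC17 after TiO2 in the chip had the lowest, -0.47 with a 95% interval of -1.08 to 0.14, and it was -0.30 without replicate 4. MUC1 after TiO2 was 0.11 in the chip, or 0.41 without replicate 4 (adjusted p = 0.3462), and -0.43 on Transwell, with a 95% interval of -0.88 to 0.02. Without replicate 4 of both chip TiO2-set groups the members' TiO2 differences in the chip ran from -0.30 to 0.46 and 0 of 10 passed, while 73 of all genes passed in place of 0. For TFF1 the differences from control were -0.26 and -0.15 for TiO2 and ZnO in the chip and -0.01 and -0.07 on Transwell, with 95% intervals that included 0.

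**Figure D4:**
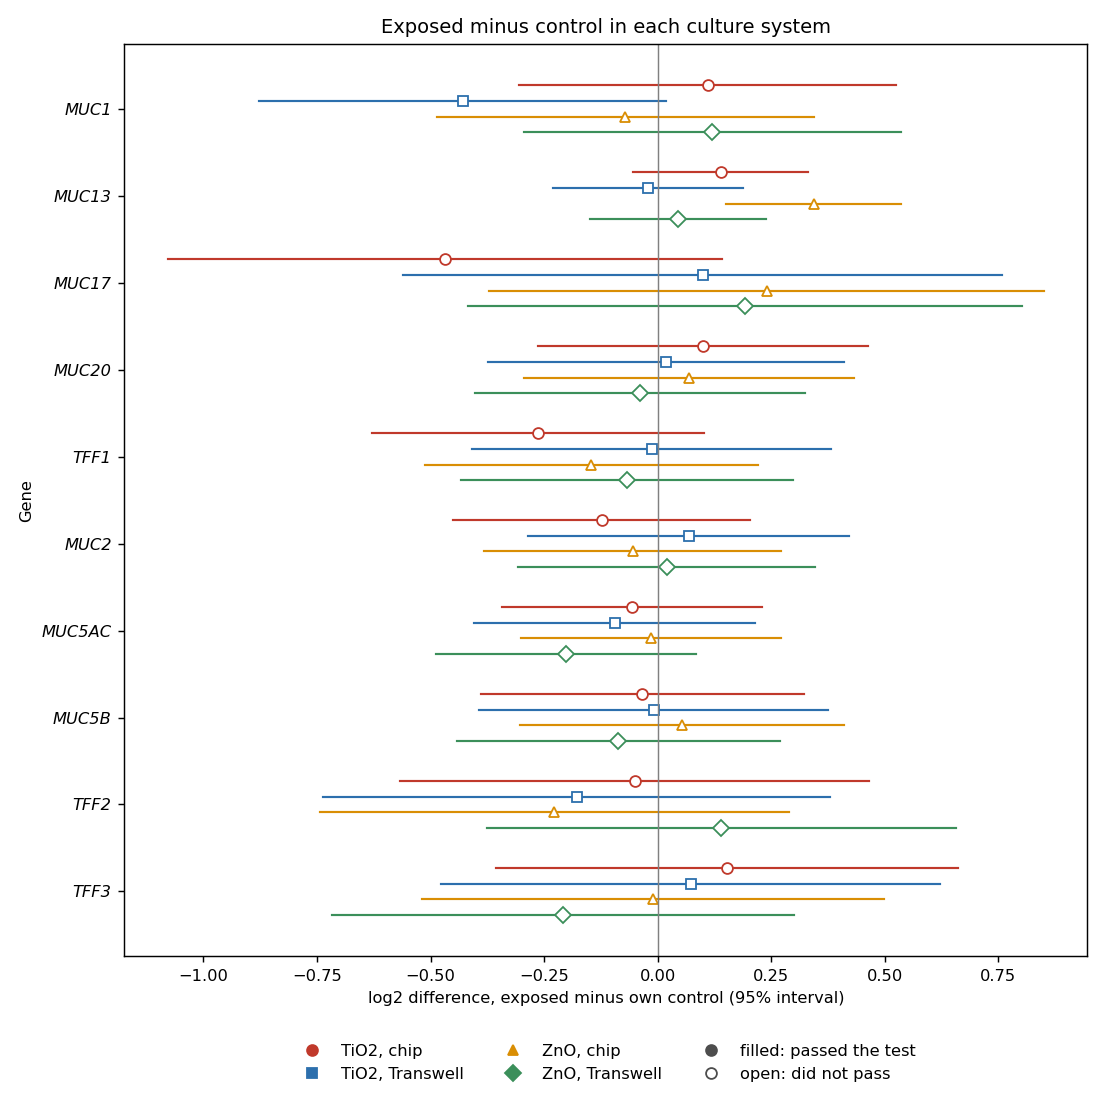
Log2 difference, exposed minus its own control, of each member for TiO2 and ZnO in each culture system, with 95% intervals before adjustment. All symbols are open because no member passed at an adjusted p under 0.05. The interval for MUC13 after ZnO in the chip, around 0.34, is the only one of the 40 that excludes 0.

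The control media themselves differed on Transwell. MUC1 averaged 3.22 ± 0.11 in Transwell ZnO-control and 3.92 ± 0.36 in Transwell TiO2-control (SD, n = 4 each), and the arrays listed above did not overlap. That difference was -0.70 ± 0.20 (adjusted p = 0.03339). TFF2 averaged 5.50 ± 0.53 in Transwell ZnO-control and 6.34 ± 0.35 in Transwell TiO2-control, with overlap, and the difference was -0.84 ± 0.25 (adjusted p = 0.04072). These were 2 of 10 members, both lower, against 6.64% of all genes (2.88% higher, 3.76% lower), and 17.7% of genes had groups that did not overlap. The MUC1 call was lost without Transwell TiO2-control replicate 1 or 3 or Transwell ZnO-control replicate 1, 2 or 3, with -0.70 to -0.56 in those fits. The TFF2 call was lost without Transwell TiO2-control replicate 1, 3 or 4 or Transwell ZnO-control replicate 1, 2 or 4, with -0.90 to -0.64. The labels do not say whether both control media were run together, so medium and any difference between runs cannot be told apart.

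In the chip 0 of 10 members passed for ZnO-control against TiO2-control (0.058%), and 2 did at an unadjusted limma p under 0.05 (9.69% of genes). MUC17 averaged 7.64 ± 0.50 in chip ZnO-control and 8.52 ± 0.50 in chip TiO2-control (SD, n = 4 each), a difference of -0.87 ± 0.30 (adjusted p = 0.3069). Without replicate 4 of both chip TiO2-set groups it was -1.07 and passed (adjusted p = 0.03078), in a fit that called 388 genes in place of 13. MUC13 differed by -0.28 ± 0.09 (adjusted p = 0.2971).

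Replicates scattered more in the chip for several members. The pooled within-group SD of TFF1 was 0.33 in the chip and 0.15 on Transwell, that of MUC17 0.56 and 0.28, and that of MUC13 0.14 and 0.07. All chip SDs given here include chip TiO2 replicate 4. For TFF2, TFF3, MUC2 and MUC20 the chip SD was 0.926 to 1.05 times the Transwell SD. Members also deviated together from their group means in the chip: 15 of 45 pairs had a Pearson r over 0.5 across the 16 chip arrays, with a median r of 0.38, against 3 of 45 pairs and a median of 0.05 across the 15 Transwell arrays. Without chip TiO2 replicate 4 the chip count was 5 of 45 and the median 0.08. These correlations describe the arrays and carry no test. SDs and pair correlations over all genes were not computed, so neither is shown to be particular to the members.

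The genes most like a member across the 31 arrays were listed for the 3 members whose group means ranged widest, by Pearson r, which here mostly follows the split between the systems. For TFF1 they were RRAS (0.961), FKBP10 (0.953), TFPI (0.952), SRPX2 (0.950) and PRNP (0.948), whose r was 0.210 to 0.428 within the 16 chip arrays and 0.0928 to 0.676 within the 15 Transwell arrays. For TFF2 they were MFAP2 (0.935), SORCS2 (0.911), PXMP4 (0.897), GNG4 (0.895) and ESPL1 (0.892), with 0.282 to 0.833 within the chip and 0.686 to 0.818 within Transwell. For MUC1 they were CTSE (0.872), CDC20 (0.859), TMPRSS13 (0.851), DTNA (0.850) and CDC42EP1 (0.843), with 0.478 to 0.767 within the chip and 0.596 to 0.762 within Transwell.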

How the data were processed

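RNA from the Caco-2 cultures was hybridised to Affymetrix whole-transcript arrays. The authors' deposited table holds log2 values, which they made with RMA according to the processing notes of the submitters. For RMA and the genome build, versions were not given in the sources used here. This step gives all arrays a like distribution, so a shift shared by most genes would not be seen. The table held 53617 probe sets on 31 arrays. Of these 23871 named 1 gene in the platform annotation, 1842 named several and 27904 named none, and for 632 genes with several probe sets the brightest was kept, which left 22395 genes. Symbols were updated by gene identifier through RefSeq (GRCh38.p14).

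limma 3.58.1 in R 4.3.3 was fitted with 1 mean per group to all 31 arrays (23 residual degrees of freedom, prior 4.77). It took 1 variance per gene over all groups, so SEs and p-values do not follow different spreads in chip and Transwell. Adjusted p-values are Benjamini-Hochberg over all 22395 genes within each of 14 comparisons, with a threshold of 0.05. Fold changes are 2 to the power of the log2 difference. The fit was tested on simulated data with the same spread in every group, so that test does not cover unequal spread. The number of arrays limits the precision, and depth has no meaning for arrays. Promoters were matched by symbol and found for 4 of 10 members.

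The members and gene lists were chosen with earlier results of these data known. All members were described. From other lists up to 4 genes with the smallest p among those that passed were named. KLF4 and markers used to check cell identity were named besides. For likeness the 5 genes with the highest r were named. Replicate numbers were checked for pairing: same-numbered arrays correlated between -0.232 and 0.131 in their deviations from group means, so they were not treated as pairs.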

Additional observations from a re-analysis of the deposited data

Results flagged for a closer look

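Of 70 combinations of a member and a group of 4 arrays, 3 held a value far from the group's other arrays. The rule was Dixon's ratio at the 95% level, and chance alone gives about 1 in 20. Combinations from the same group share arrays, so they are not independent. Transwell TiO2, with 3 arrays, was not tested. MUC1 in chip TiO2 replicate 4 was 3.347, against 4.383 to 4.558 in the other arrays of that group. TFF1 in chip ZnO-control replicate 1 was 9.761, against 10.34 to 10.45 in the others. TFF1 in Transwell ZnO-control replicate 1 was 8.216, against 8.682 to 8.714 in the others. The TFF1 calls between chip and Transwell passed without either array.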

How the results depend on the processing

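Of 24 calls on single members, 17 stayed past the threshold in the same direction under every alternative run, and no member reversed its direction among called values. TFF1 passed in all chip and Transwell comparisons, between 1.34 and 1.85 on the log2 scale. With a replicate block the counts of members called stayed 5 over both control media, 3 in TiO2-control, 4 in ZnO-control, 5 after TiO2, 5 after ZnO and 2 for the Transwell control media, and the block changed no call. Leaving out single arrays gave 5 to 6 members over both control media (5 with all arrays), 3 in TiO2-control medium, 2 to 4 in ZnO-control medium (4), 3 to 5 after TiO2 (5), 4 to 5 after ZnO (5), 0 to 2 for the Transwell control media (2) and 0 to 1 for the difference between media (0). After TiO2 the count was 3 with all probe sets tested and 3 with only the compared arrays. For the Transwell control media it was 0 with all probe sets, 1 with only genes above the median level and 1 with only the compared arrays. For ZnO in the chip it was 1 with an intensity trend and robust prior, against 0. For the control media in the chip it was 1 without replicate 4 of both TiO2-set groups, against 0. For the difference between media it was 1 with array weights, 1 with only the compared arrays and 1 without those replicates, against 0. In ZnO-control medium the count of 2 came without Transwell ZnO-control replicate 3, where MUC20 (0.45, adjusted p = 0.09568) and TFF2 did not pass. MUC20 after ZnO did not pass without Transwell ZnO replicate 1 (0.43, adjusted p = 0.05804). In TiO2-control medium MUC20 passed with arrays centred on their median (adjusted p = 0.02393), quantile-normalised (0.01367), with only genes above the median level (0.02662) and with only the compared arrays (0.01088). Across all genes, TiO2 in the chip called 0, or 73 without replicate 4 of both groups and 2 with the trend. ZnO in the chip called 61, or 96 with the trend and 1 with the chip arrays alone. The control media called 13 in the chip, or 388 without replicate 4 and 0 with the chip arrays alone, and 1486 on Transwell, or 2981 with the Transwell arrays alone. The fits to the arrays of 1 system were chosen after seeing the data. The causes were not tested. MUC1 and other dim members were not tested where only genes above the median level entered. Levels near the array median limit what can be read from MUC5B and, on Transwell, from MUC1. The medians over the genes tested, 4.24 to 4.40, were above every group mean of MUC2, MUC5AC and MUC5B. TFF3 and, in the chip, MUC1 and TFF2 had group means near those medians. Low levels therefore also limit what can be read from these members.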
